A study of Mus musculus with 11 samples.

Results

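Transcripts of 7 matrix metalloproteinases (Mmp2, Mmp3, Mmp9, Mmp11, Mmp13, Mmp14 and Mmp19) and of 3 tissue inhibitors of metalloproteinases (Timp1, Timp2 and Timp3) were followed in cultured mouse mesenchymal stem cells (MSCs) of different age. These 10 genes, of 28222 genes in the count table, were chosen by their CPM (counts scaled to library size) in the same libraries, with the age difference of Mmp9 and Mmp13 already known, so that their values are given as a description and without p-values. RNA-seq of polyadenylated RNA gave 11 libraries of bone-derived MSCs, which can form osteoblasts and adipocytes. By batch and age they formed the groups A young (n = 4), B young (n = 2), B old (n = 2) and C old (n = 3). Young mice were 3 to 5 months and old mice 18 to 22 months of age, and all MSCs were cultured at 2% oxygen in the same medium. According to the methods of the study, which describe an oxygen comparison, MSCs were obtained from hind limb bones of wild-type male C57BL/6N mice and sorted after outgrowth in culture as cells lacking CD45 and Ter-119 and carrying Sca-1 and CD140a. It was assumed that the same holds for these libraries. Age and batch could be separated only within batch B, and in a comparison of A young with C old MSCs they cannot be told apart. Whether a library stands for 1 animal or for pooled animals was not given, and p-values therefore measure the spread between these libraries, which may be technical.

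Matrix metalloproteinases are zinc-dependent enzymes that are mostly secreted as inactive proenzymes and, after cleavage of the propeptide, degrade collagens and other matrix proteins. Timp proteins bind the active site of these enzymes in a stoichiometric complex, so that the activity in a tissue depends on proenzyme amount, activation and inhibitor amount together. In bone, MMP13 and MMP14 of osteoblast lineage cells and MMP9 of osteoclasts take part in the turnover of collagenous matrix. The libraries measured transcripts only, and neither proteins nor enzyme activity.

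Promoter sequences were taken for the members from RefSeq on GRCm38.p6, where a window was found for 7 of the 10 genes (Mmp3, Mmp11, Mmp13, Mmp14, Timp1, Timp2 and Timp3) and none for Mmp2, Mmp9 and Mmp19. The windows of Mmp13 and Mmp3 are printed because transcript levels of both genes differed most between young batches, and the one of Timp1 for comparison with an inhibitor. Each window holds the 250 bases upstream of the transcription start, 5′ to 3′ on the strand of the gene, and capitals mark matches to the AP-1 motif (TGANTCA, which reads the same on both strands).
Mmp13, chr9:7272264-7272513, + strand: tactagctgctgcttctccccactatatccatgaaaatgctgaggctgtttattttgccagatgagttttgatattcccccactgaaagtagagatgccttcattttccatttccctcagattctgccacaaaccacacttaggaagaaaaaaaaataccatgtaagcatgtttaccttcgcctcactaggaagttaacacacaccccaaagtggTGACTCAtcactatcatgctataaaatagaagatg
Mmp3, chr9:7445572-7445821, + strand: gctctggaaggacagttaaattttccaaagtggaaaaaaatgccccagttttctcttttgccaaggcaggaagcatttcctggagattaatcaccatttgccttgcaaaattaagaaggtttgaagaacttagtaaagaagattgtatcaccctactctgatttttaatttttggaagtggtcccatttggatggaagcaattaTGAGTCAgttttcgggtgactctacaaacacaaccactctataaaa
Timp1, chrX:20869916-20870165, + strand: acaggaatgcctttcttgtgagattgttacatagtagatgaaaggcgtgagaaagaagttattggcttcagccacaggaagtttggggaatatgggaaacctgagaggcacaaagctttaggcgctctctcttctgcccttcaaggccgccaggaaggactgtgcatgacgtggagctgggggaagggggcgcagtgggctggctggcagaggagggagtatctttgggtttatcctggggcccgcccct
AP-1 letters were found in 2 of the 7 members with a window, 35 bases upstream of the start in Mmp13 and 46 bases upstream in Mmp3, and in 6.75% of all 32851 windows of the genome. The same 2 windows held TATAAA, which occurred in 12.4% of all windows. A RUNX motif (TGTGGT, searched on both strands as were all motifs) lay in the windows of Mmp13 and Mmp14, and in 14% of all windows. The GC-rich letters GGGCGG were present in 5 of the 7 members (Mmp11, Mmp14, Timp1, Timp2 and Timp3) against 32.7% of windows, and ACGTG, the core of hypoxia response elements, in Mmp14 and Timp1 against 16.6%. A match describes the letters of a window and is not a measured binding site.

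Total counts per library ranged from 11969336 to 20315934. Expression is given as CPM scaled with TMM factors, and levels of different genes are compared only as CPM per kb of the longest transcript. The surface markers of the sort were present in all 11 libraries. Ly6a, which encodes Sca-1, ranged from 270.1 to 778 CPM, and Pdgfra, which encodes CD140a, from 109.3 to 288.5 CPM. Ptprc, which encodes CD45, was not absent, with 3.47 to 22.2 CPM. The 12 macrophage markers on the list summed to 604 to 1279 CPM in A young, 358 to 720 CPM in B young, 744 to 1050 CPM in B old and 150 to 175 CPM in C old libraries, and none of the 12 was at 0 in any library. Their sum was thus lowest in batch C. As RNA was taken from whole cultures, fewer cells of a type and less RNA per cell cannot be told apart.

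**Figure D1:**
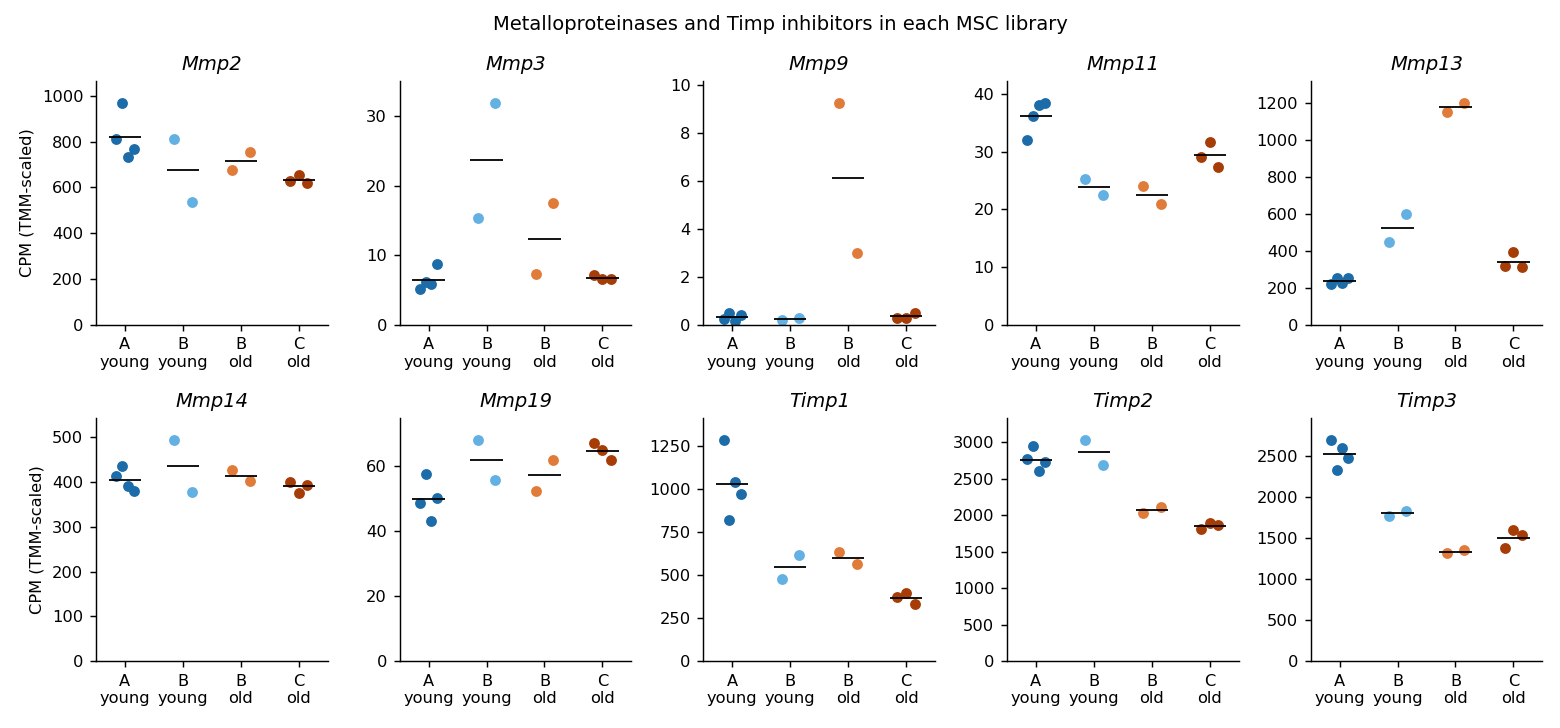
CPM (y axis, starting at 0 in each panel) of the 10 members in each of the 11 libraries (points) by batch and age (x axis), with group means as lines. Mmp13 and Mmp9 were highest in both B old libraries, and Timp1 and Timp3 were highest in A young libraries.

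Mmp13 (collagenase-3, which cleaves fibrillar collagen and is made by hypertrophic chondrocytes and osteoblasts) is encoded on chromosome 9 (7272514 to 7283331, + strand, GRCm38). In A young libraries it had 219.7, 250.5, 227 and 253.9 CPM. Values in batch B were 449.1 and 598.5 CPM in young and 1154 and 1201 CPM in old libraries. Batch C old libraries had 315.5, 392.7 and 313.9 CPM. The 4 groups did not overlap, in the order A young, C old, B young and B old. Mean CPM was 2.25-fold higher in old than in young MSCs of batch B (1177 ± 32.8 against 524 ± 106, SD, n = 2 each). Young MSCs of batch B in turn had 2.20-fold more than young MSCs of batch A (237.8 ± 17.0, n = 4), and old MSCs of batch B had 3.46-fold more than old MSCs of batch C (341 ± 45.0, n = 3). The difference between batches at the same age was therefore as large as the difference between ages within batch B. Among the summed transcript level of the 7 proteinases per kb, Mmp13 took 17.3% ± 1.38 in A young, 33.5% ± 9.26 in B young, 52.7% ± 0.349 in B old and 26.0% ± 2.35 in C old MSCs (SD).

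Markers of the osteoblast lineage, which is known to make Mmp13, were set beside it. The 9 genes listed as osteoblast markers were Sp7, Ibsp, Bglap, Alpl, Runx2, Dmp1, Phex, Col10a1 and Spp1. They summed to 633 to 796 CPM in A young and 708 to 1026 CPM in B young libraries. In old libraries their sum was 885 to 936 CPM in batch B and 885 to 1210 CPM in batch C. None of the 9 was at 0 in any library. Spp1 had the most counts of the 9 (79418 over all libraries), followed by Alpl (32830). With age in batch B, where Mmp13 was higher in old MSCs, 1 of the 9 markers rose and 0 fell, beside 0.694% and 1.54% of all genes tested. The marker that rose was Alpl, the tissue-nonspecific alkaline phosphatase, with 127 and 112 CPM in B young and 242 and 232 CPM in B old libraries (log2 difference 0.98, SE 0.15, edgeR adjusted p = 0.002873). In batch C minus B, where Mmp13 was lower, 6 of the 9 markers were higher and 1 was lower, with a median log2 difference of 1.22. Of all genes tested there, 32.1% were higher and 32.6% lower. Between young batches 2 of the 9 markers were higher and 3 lower in batch B, beside 9.39% and 8.71% of all genes tested. Of the 9 MSC markers, 2 fell with age in batch B, Pdgfra (-0.86, SE 0.15, edgeR adjusted p = 0.005905) and Nt5e, which encodes CD73 (-1.34, SE 0.25, adjusted p = 0.009322), and 0 rose. The part of these markers' cells in the level of Mmp13 was not tested.

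Mmp9 (gelatinase B, chromosome 2, 164940780 to 164955850, + strand), which degrades denatured collagen and is known in bone from osteoclasts and neutrophils, was close to the detection limit in most libraries. It had 4, 6, 2 and 5 counts in A young, 4 and 4 counts in B young and 5, 4 and 7 counts in C old libraries. Only the old libraries of batch B stood out, with 137 and 45 counts, or 9.22 and 3.00 CPM. These 2 libraries of the same age and batch differed widely from each other. In the other 9 libraries Mmp9 did not exceed 0.508 CPM, where 3 counts correspond to 0.156 to 0.253 CPM. Mean CPM in batch B was 25.4-fold higher in old (6.11 ± 4.40) than in young MSCs (0.240 ± 0.0451, SD, n = 2 each), a ratio that rests on 8 counts in the young libraries. Old libraries of batch C (0.355 ± 0.133 CPM, n = 3) overlapped both young groups.

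Markers of other Mmp9-producing cells moved with it in part. Acp5, the tartrate-resistant acid phosphatase of osteoclasts, had 6.13 and 3.07 CPM in B old and 0.781 to 1.86 CPM in the other 9 libraries. It rose with age in batch B (log2 difference 1.92, SE 0.40, quasi-likelihood test of edgeR, adjusted p = 0.01941). Dcstamp, which osteoclast precursors need to fuse, had 15 and 3 counts in B old and at most 2 counts elsewhere. For Atp6v0d2, an osteoclast proton pump subunit, B old libraries had 2.42 and 1.67 CPM against at most 1.32 CPM elsewhere (log2 difference with age 2.24, SE 0.77, edgeR adjusted p = 0.1479). The osteoclast list as a whole did not follow. Its 9 genes summed to 193 to 197 CPM in B old, 157 to 207 CPM in B young, 181 to 194 CPM in A young and 183 to 197 CPM in C old libraries, of which Ctsk made up 111 to 171 CPM. With age 1 of the 6 tested genes, Acp5, passed the threshold, beside 2.23% of all genes tested. Log2 differences with age were 1.13 (SE 1.06) for Oscar, 0.12 (SE 0.15) for Ctsk, 0.09 (SE 0.22) for Itgb3 and -0.26 (SE 0.15) for Nfatc1. Calcr, the calcitonin receptor of mature osteoclasts, was at 0 in 10 of 11 libraries and had 1 count in the remaining one. The 6 neutrophil markers in the table summed to at most 1.82 CPM in any library. Of the 12 macrophage markers, 0 passed the edgeR threshold with age in batch B, with a median log2 difference of 0.73. The part of these cells in the level of Mmp9 was not tested.

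**Figure D2:**
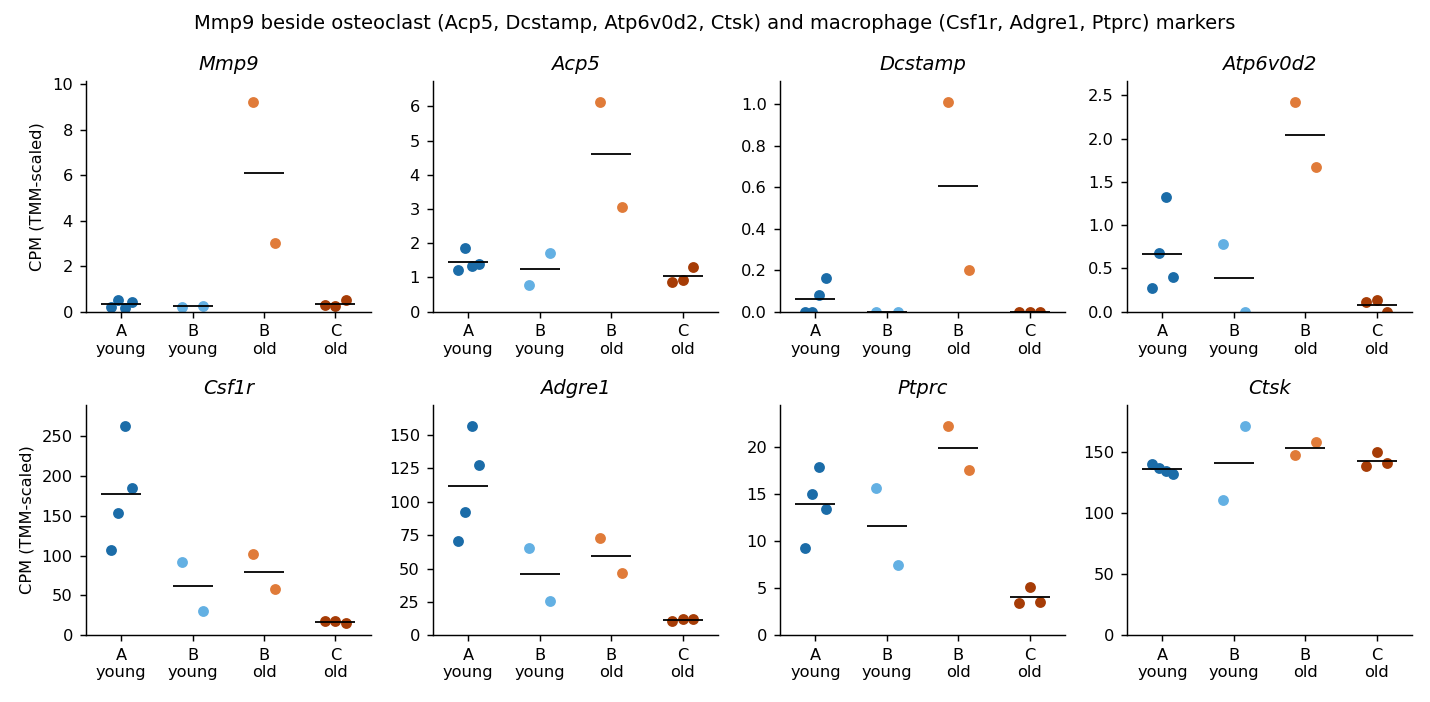
CPM (y axis) of Mmp9, 4 osteoclast markers and 3 macrophage markers in each of the 11 libraries (points) by batch and age (x axis), with group means as lines. Acp5, Dcstamp and Atp6v0d2 were highest in both B old libraries, as was Mmp9, whereas Ctsk was at 111 to 171 CPM in every group and Csf1r was highest in A young. Oscar, Itgb3, Nfatc1, Calcr and Ocstamp of the osteoclast list are not drawn.

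Mmp2 (gelatinase A, chromosome 8, 92827291 to 92853420, + strand), which is secreted by most stromal cells, had the highest group mean per kb of the proteinases in every group except B old. In B young replicate 2, Mmp13 was above it, with 40.0% of the summed proteinase level against 31.3% for Mmp2. Mmp2 ranged from 734.5 to 968.5 CPM in A young, with 812.6 and 538.2 CPM in B young, 677.7 and 756.2 CPM in B old, and 619.6 to 654.7 CPM in C old libraries. Its ages overlapped in batch B. Mmp14 (chromosome 14, 54431612 to 54445364, + strand) encodes the membrane-anchored collagenase MT1-MMP, which activates pro-MMP2 together with TIMP2. Group means of Mmp14 varied least among the 10 genes, with 404 ± 24.7 CPM in A young, 435 ± 81.5 CPM in B young, 413 ± 16.9 CPM in B old and 390 ± 12.6 CPM in C old MSCs (SD). For Mmp2 the C old libraries lay below all A young and B old libraries, and for Mmp14 below both B old libraries.

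Mmp3 (stromelysin-1, chromosome 9, 7445822 to 7455975, + strand), which cleaves proteoglycans and activates other proenzymes, was low and variable. It had 5.10, 6.16, 5.86 and 8.69 CPM in A young and 15.4 and 31.9 CPM in B young libraries. Old libraries had 7.27 and 17.6 CPM in batch B and 7.18, 6.54 and 6.60 CPM in batch C. Mmp3 was therefore 3.67-fold higher in young MSCs of batch B than of batch A, without overlap, and its ages overlapped in batch B, where replicates of the same age differed about as much as the age groups. Mmp11 (stromelysin-3, chromosome 10, 75923222 to 75936496, - strand), an enzyme of remodelling stroma that is activated inside the cell by furin, was 36.2 ± 2.93 CPM in A young, 23.9 ± 1.99 in B young, 22.5 ± 2.13 in B old and 29.4 ± 2.18 in C old MSCs. Both ages of batch B lay below all libraries of batches A and C. Mmp19 (chromosome 10, 128790910 to 128800824, + strand), which degrades basement membrane proteins, had 43.0 to 57.5 CPM in A young, 55.5 and 67.9 CPM in B young, 52.1 and 61.8 CPM in B old and 61.9 to 67.1 CPM in C old libraries. Its groups overlapped except that C old lay above A young and above B old.

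Timp1 (chromosome X, 20870166 to 20874735, + strand), the inhibitor that also binds pro-MMP9, differed between batches more than between ages. Batch A young libraries had 1284, 818.5, 1040 and 968.5 CPM, and B young libraries 479.8 and 615.9 CPM. In old MSCs it reached 634.1 and 564.9 CPM in batch B and 375.1, 393.9 and 330.5 CPM in batch C. The ages overlapped in batch B, whereas batch A lay above and batch C below all libraries of batch B. Timp1 has the shortest transcript of the members (883 nt), and the decile of genes with the shortest transcripts had a median log2 difference of -0.69 between old MSCs of batches C and B, next to -0.71 (SE 0.08) for Timp1. After correction for transcript length and GC content the difference of Timp1 was -0.22.

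Timp2 (chromosome 11, 118301069 to 118355740, - strand) acts both as inhibitor and, with MT1-MMP, in the activation of MMP2. Its level was 2768, 2947, 2599 and 2723 CPM in A young and 3030 and 2692 CPM in B young libraries. The old libraries had 2027 and 2116 CPM in batch B and 1816, 1892 and 1859 CPM in batch C. All 5 old libraries thus lay below all 6 young libraries, the largest old value being 2116 CPM and the smallest young value 2599 CPM. Timp3 (chromosome 10, 86300372 to 86349506, + strand), which is bound to the matrix and also inhibits Adam and Adamts proteinases, had 2693, 2324, 2589 and 2477 CPM in A young, and 1772 and 1825 CPM in B young libraries. Old libraries had 1315 and 1356 CPM in batch B and 1377, 1596 and 1532 CPM in batch C. For Timp3, too, every old library was below every young library, but young MSCs of batch B were also below those of batch A. Batch A held only young and batch C only old libraries, so that these orders do not separate age from batch. The share of all genes with such an order over the 11 libraries is not given here. Within batch B alone, old and young libraries did not overlap for 39.7% of all genes tested.

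The order of levels per kb differed between groups. In A young MSCs it was Timp1 (1164 CPM per kb), Timp2 (744), Timp3 (534), Mmp2 (266.8), Mmp14 (124.8), Mmp13 (89.0), Mmp11 (15.8), Mmp19 (14.7), Mmp3 (3.58) and Mmp9 (0.102), of which only Mmp11 and Mmp19 overlapped as neighbours. In B young MSCs Timp2 led (771), before Timp1 (620.4), Timp3 (381), Mmp2 (219.4) and Mmp13 (195.9). Here Mmp2 and Mmp13, Mmp19 and Mmp3, and Mmp3 and Mmp11 overlapped. In B old MSCs Mmp13 (440.5 CPM per kb) moved to the third place, behind Timp1 (679) and Timp2 (559) and above Timp3 (283) and Mmp2 (233). In C old MSCs the 6 highest were Timp2 (500.3), Timp1 (415), Timp3 (318), Mmp2 (206), Mmp13 (127.5) and Mmp14 (120.4), and the last 2 of them overlapped.

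The question of whether proteinases and inhibitors moved together was first addressed within batch B, by a fit that used all 11 libraries and held batch constant. In this fit the age difference rests on the libraries of batch B, and the others add to the estimate of the spread. Log2 differences of old minus young MSCs were 4.64 (SE 0.59) for Mmp9 and 1.17 (SE 0.15) for Mmp13, and -0.92 (SE 0.34) for Mmp3. The other 4 proteinases lay between -0.12 and 0.09. Timp2 (-0.47, SE 0.12) and Timp3 (-0.43, SE 0.12) had negative values, and Timp1 was 0.13 (SE 0.18). The median was -0.08 for the proteinases and -0.43 for the inhibitors, against -0.08 for the 10 members and 0.00 for all genes tested. Differences were above 0 for 3 of the 7 proteinases and for 1 of the 3 inhibitors. Of these, Mmp2 (0.09, SE 0.17) and Timp1 (0.13, SE 0.18) lay within their SE of 0. Timp1 was -0.04 without B young replicate 1, and Mmp2 was -0.18 without B young replicate 2. No inhibitor was thus clearly higher in old MSCs, and the difference between the groups was not tested. In the fit of all 11 libraries 2 of the 10 members, Mmp9 and Mmp13, passed the threshold of an adjusted p of 0.05, beside 2.23% of the 16132 genes tested (0.694% higher and 1.54% lower in old MSCs). CPM of old and young libraries in batch B did not overlap for 4 members (Mmp9 and Mmp13 higher, Timp2 and Timp3 lower in old MSCs) and for 39.7% of all genes tested. Timp2 and Timp3 were also past the threshold with DESeq2 (-0.46 and -0.42) and without B young replicate 2 (-0.55 and -0.41), and Timp2 without A young replicate 1 (-0.47). Mmp3 was past it without B old replicate 2, with a difference of -1.69. Without the batch term, where age and batch cannot be told apart, Mmp13 was no longer past the threshold (1.03), whereas Timp1 (-0.90), Timp2 (-0.51) and Timp3 (-0.65) were.

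Between batches at the same age, 5 of the 10 members passed the threshold in young MSCs (batch B minus A), beside 18.1% of 14840 genes (9.39% higher and 8.71% lower). Mmp3 (1.90, SE 0.27) and Mmp13 (1.16, SE 0.14) were higher in batch B, and Timp1 (-0.88, SE 0.18), Mmp11 (-0.58, SE 0.13) and Timp3 (-0.46, SE 0.14) were lower. Timp3 lost its call without any 1 of A young replicates 1, 3 and 4 and B young replicate 2 (-0.43 to -0.49), and Mmp11 without the last of these (-0.50), whereas Mmp2 gained one without B young replicate 1 (-0.59). In old MSCs (batch C minus B) 6 of the 10 passed, beside 64.7% of 15651 genes (32.1% higher and 32.6% lower). Mmp9 (-4.11, SE 0.53), Mmp13 (-1.79, SE 0.09), Mmp3 (-0.88, SE 0.28), Timp1 (-0.71, SE 0.08) and Mmp2 (-0.18, SE 0.07) were lower in batch C, and Mmp11 (0.38, SE 0.10) was higher. Under scaling by total counts, which moved the median of all genes by 0.19 in this comparison, Mmp2 had a difference of 0.0115. Its call was also lost without each library but B old replicate 1 (-0.10 to -0.19), and Mmp3 lost its call without C old replicate 3 (-0.85) and without B old replicate 2, where it was -0.11. Medians of proteinases and inhibitors were 0.13 and -0.46 in young and -0.18 and -0.16 in old MSCs. All 3 comparisons share the libraries of batch B, so that their values were not correlated with each other.

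**Figure D3:**
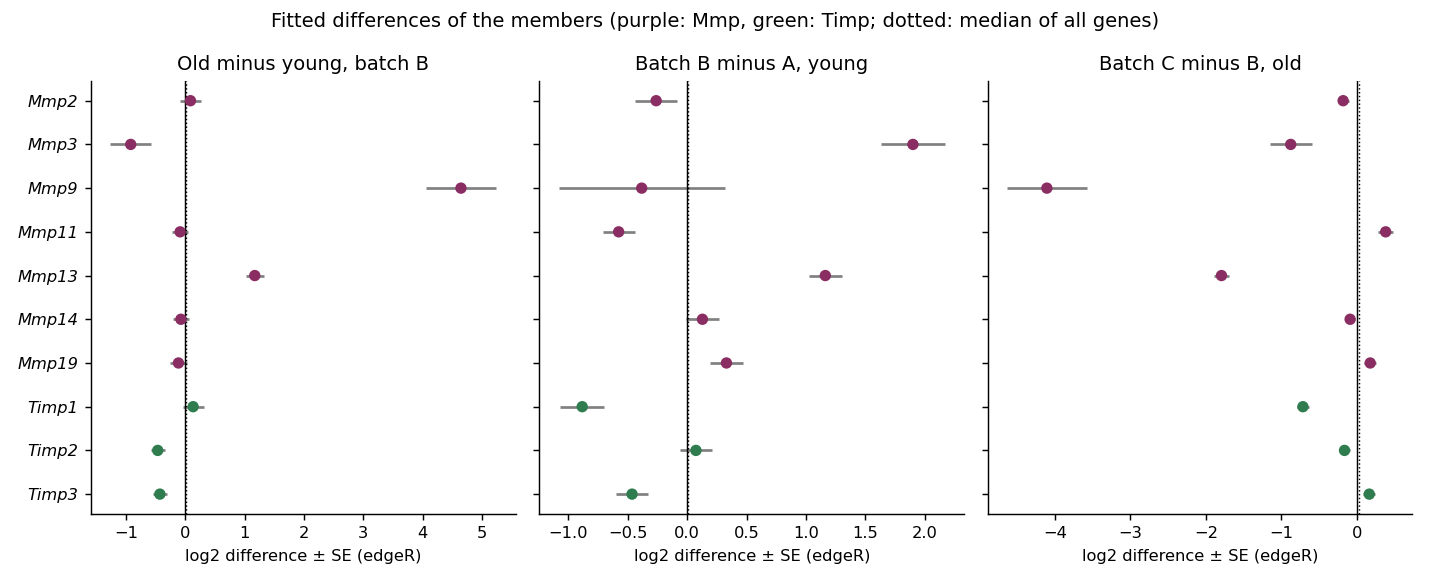
Log2 differences (x axis, points) with SE (bars) of the 10 members (y axis) for old minus young MSCs in batch B, batch B minus A in young and batch C minus B in old MSCs, with the median of all genes as a dotted line; the x scales differ between panels. Mmp13 was 1.17 higher with age and 1.16 higher in batch B than in batch A, and 1.79 on the log2 scale lower in batch C than in batch B.

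When the levels per kb were summed, the 3 inhibitors exceeded the 7 proteinases in every library. The ratio of summed Timp to summed Mmp transcript level was 4.78 ± 0.709 in A young (3.82 to 5.48), 3.01 ± 0.321 in B young (2.78 and 3.24), 1.82 ± 0.101 in B old (1.75 and 1.89) and 2.52 ± 0.0153 in C old MSCs (2.50 to 2.53; SD). No group overlapped another. In batch B both sums differed between the ages, as inhibitors had 1773 ± 52.6 CPM per kb in young and 1520 ± 32.3 in old MSCs, and proteinases 592 ± 45.7 in young and 836 ± 28.8 in old MSCs. In C old MSCs the proteinase sum (490 ± 20.1 CPM per kb) was close to that of A young (515 ± 44.5), while the inhibitor sum was 1233 ± 52.6 in the former and 2442 ± 236.5 in the latter. The low ratio of B old MSCs thus came with a high proteinase sum, of which Mmp13 was the main part, and the ratio of C old MSCs with a low inhibitor sum. Timp1 had 1164 CPM per kb in A young, 679 in B old and 415 in C old MSCs. Its log2 difference between batches C and B (-0.71) lay near the median of the shortest transcripts (-0.69), and the sums were not corrected for this. Without Mmp2 and Timp1, the proteinase and the inhibitor with the highest mean level per kb over the 11 libraries, the ratio was 5.16, 3.10, 1.39 and 2.89 in the same order of groups. In this version B young (2.89 and 3.31) and C old libraries (2.81 to 3.02) overlapped. The ratio describes transcripts of members selected on these data and was not tested.

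**Figure D4:**
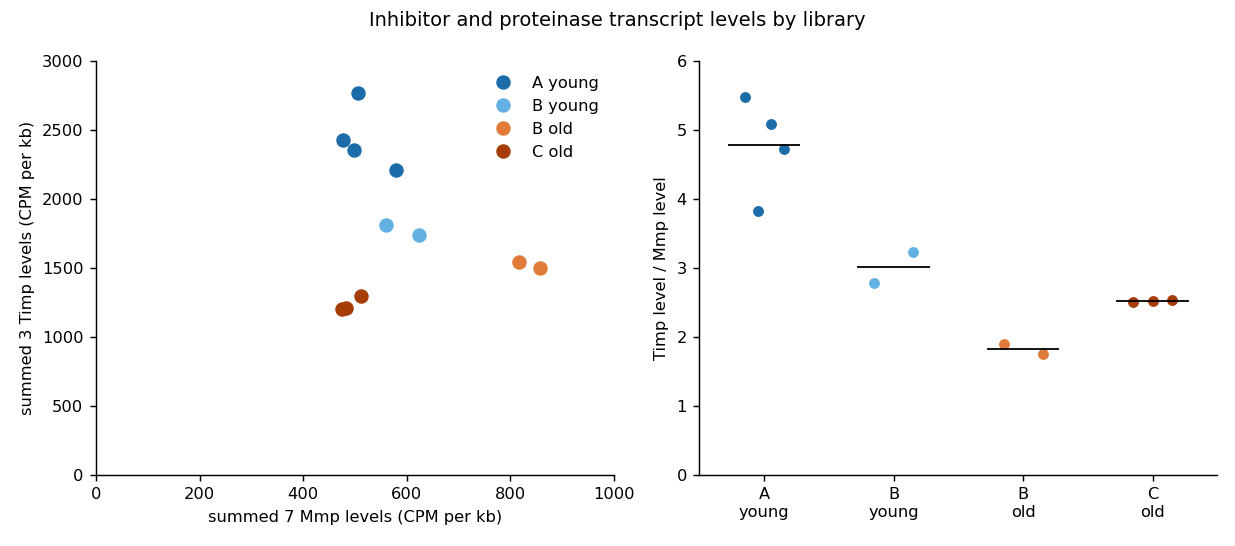
Left, summed Timp level (y axis, CPM per kb) against summed Mmp level (x axis, CPM per kb) in each of the 11 libraries (points); right, their ratio by batch and age with group means as lines. The ratio was 3.82 to 5.48 in A young, 2.78 and 3.24 in B young, 1.75 and 1.89 in B old and 2.50 to 2.53 in C old libraries.

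Genes whose pattern over the 11 libraries was most like that of a member were found among 16122 genes by the root mean square difference of centred log2 CPM. For Mmp13, which had an SD of 0.84 over the libraries, the nearest gene was Pla2g4a (cytosolic phospholipase A2) at 0.22, followed by Gm38166 (0.28) and Pln (0.29). Pln was at 0 in all A young and C old libraries and at most 0.601 CPM in batch B. Pla2g4a had 25.0 to 37.2 CPM in A young, 58.9 and 77.1 in B young, 141 and 120 in B old and 43.7 to 47.8 in C old libraries, which is the order of groups seen for Mmp13. Nearest to Timp1 (SD 0.62) were Gm10157 (0.16), S100a6 (0.23) and Fam110a (0.23). For Mmp9 (SD 1.48) no gene was close. The nearest were Hist1h4a (0.78) and Ccr3 (0.80), which were at or near 0 outside B old, and Acp5 (0.82).

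Of 61 other genes listed for the pathway (other Mmp genes, other inhibitors and binding partners, activating proteinases, and the Adam and Adamts families), 59 were in the table, and Mmp1a and Adamts19 were not analysed here. With age in batch B, 49 were tested, of which 2 fell and 0 rose (4.08% against 2.23% of all genes). Reck, a membrane-anchored inhibitor of MMP2, MMP9 and MMP14, had 118 and 108 CPM in young and 47.7 and 58.6 CPM in old libraries of batch B, a log2 difference of -1.08 (SE 0.14, edgeR adjusted p = 0.001021). Pcsk6, a proprotein convertase that can process pro-metalloproteinases, had 146 and 126 CPM in young and 83.5 and 81.3 CPM in old libraries, a log2 difference of -0.72 (SE 0.12, edgeR adjusted p = 0.004163). With 1 library left out at a time, the log2 difference with age was -1.24 to -0.93 for Reck and -0.83 to -0.61 for Pcsk6. Batches A and C hold 1 age each, so that leaving out their libraries hardly moved these values and tests little. Pcsk6 did not pass when only batch B libraries were fitted. Without the batch term neither Reck nor Pcsk6 passed. Neither was low in old MSCs of batch C. There Reck had 104 to 112 CPM and Pcsk6 177 to 198 CPM, which was 1.04 (SE 0.09, edgeR adjusted p = 8.004e-07) and 1.20 (SE 0.07, adjusted p = 5.148e-08) above B old on the log2 scale. Of 7 tested other Mmp genes, 10 Adam genes and 16 Adamts genes, 0 passed with age in the edgeR fit with batch. At an unadjusted p under 0.05 there were 2, 2 and 6 of them, DESeq2 called 0, 0 and 2, and limma-trend 0 in each family. Adamts6, named here after its values were seen, was close to the threshold (log2 difference 1.08, SE 0.27, edgeR adjusted p = 0.0508), with 6.30 and 5.78 CPM in B young and 13.9 and 11.7 CPM in B old libraries. It was past the threshold with RLE factors (1.09), with total counts (1.15), with DESeq2 and without any 1 of the 4 A young libraries (1.08). It did not pass with limma-trend, a minimum count of 10, batch B libraries alone, or without any 1 library of batches B and C.

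In young MSCs 7 of 46 tested pathway genes passed between batches B and A (15.2% against 18.1% of all genes), 3 higher and 4 lower in batch B. Adamts4, an aggrecanase, had 7.51 to 12.8 CPM in batch A and 24.9 and 17.6 CPM in batch B (log2 difference 1.11, SE 0.22, edgeR adjusted p = 0.005656). Plau, the urokinase plasminogen activator, was 81.3 to 91.9 CPM in batch A and 110 and 108 CPM in batch B (0.35, SE 0.11, adjusted p = 0.04797), a call that was lost without each of the 6 libraries in turn. A2m, encoding the plasma inhibitor alpha-2-macroglobulin, was also higher, from 1 to 2 counts per library in batch A to 11 and 13 counts in batch B. Lower values in batch B were found for Lrp1, the endocytic receptor that clears proteinase and inhibitor complexes (-1.06, SE 0.20, edgeR adjusted p = 0.005314), for Pcsk6 (-0.89, SE 0.13, adjusted p = 0.001783) and for Adamts18, which had only 4 counts in each library of batch B and 8 to 27 counts in batch A. Without B young replicate 2 the calls of A2m, Lrp1 and Adamts18 were lost, and without B young replicate 1 that of Adamts18. Lrp1, with a transcript of 14888 nt, also had no call after correction for length and GC content, and A2m had none with DESeq2 or a minimum count of 10.

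Old MSCs of batches C and B differed in 30 of 47 tested pathway genes (63.8% against 64.7% of all genes), 21 of them higher and 9 lower in batch C. Timp4, the inhibitor that is no member of the set, had 3 and 2 counts in B old and 68 to 78 counts in C old libraries (log2 difference 4.73, SE 0.37, edgeR adjusted p = 4.486e-07), and thus at most 5.00 CPM. Adamts15 was at 0 counts in both old libraries of batch B and had 16 to 19 counts in batch C, which is at least 5.51-fold higher when batch B is set to 3 counts per library. Hpn, which encodes the membrane serine proteinase hepsin, had 3 and 0 counts in B old and 12 to 27 counts in C old libraries (edgeR adjusted p = 0.001492). Mmp12, the macrophage metalloelastase, fell from 5.99 and 3.00 CPM to 0.720 to 1.23 CPM (-2.23, SE 0.35, adjusted p = 0.0001515), and Adam8, which leukocytes also express, from 94.7 and 55.3 CPM to 19.7 to 23.5 CPM (-1.82, SE 0.18, adjusted p = 2.603e-06). All 12 macrophage markers were lower in batch C as well, by a median of -2.45 on the log2 scale, beside 32.6% of all genes tested. The part of these markers' cells in the difference of Mmp12 and Adam8 was not tested. Pcsk5 was lower by a smaller amount (-0.66, SE 0.15, edgeR adjusted p = 0.00242).

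**Figure D5:**
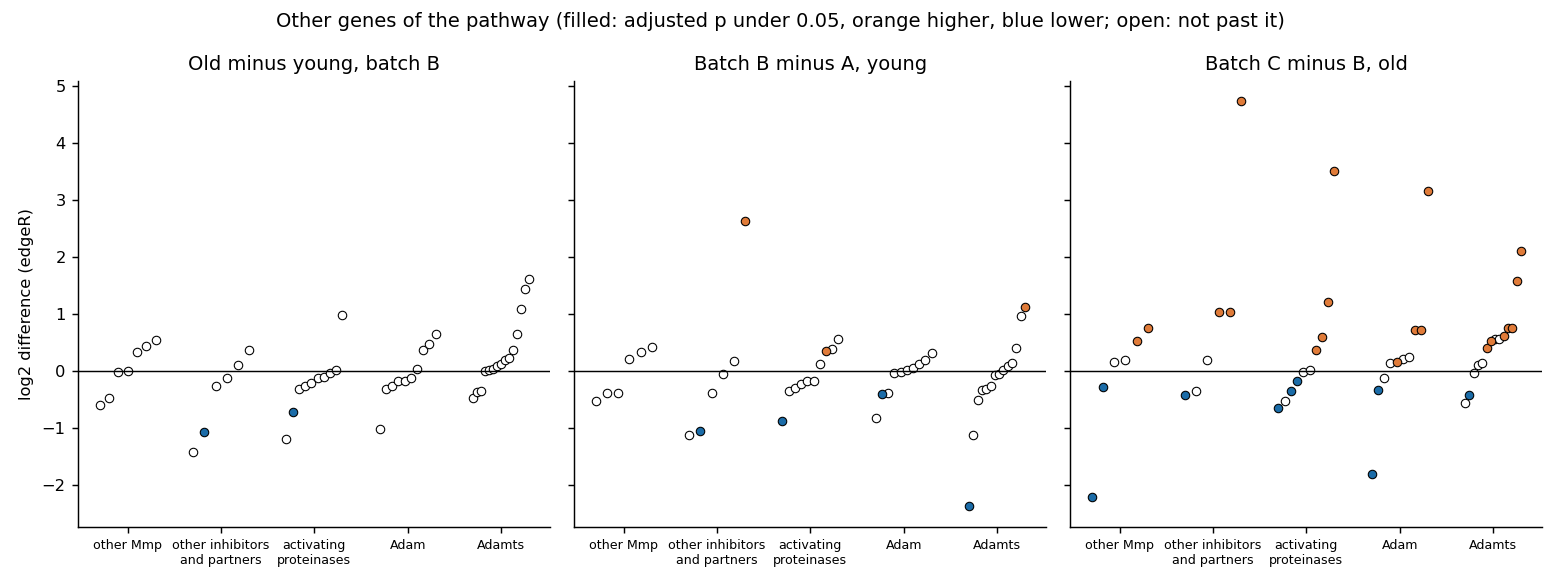
Log2 differences (y axis) of the other tested pathway genes by list (x axis), for old minus young MSCs in batch B, batch B minus A in young and batch C minus B in old MSCs; filled points passed an adjusted p of 0.05 in edgeR, and genes without any count in one of the 2 groups compared are not drawn. With age 2 genes, Reck and Pcsk6, are filled, against 7 between young batches and 30 between old batches, of which Adamts15 is not drawn.

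Some of these genes share their position with others. Timp1 lies within Syn1 and Timp3 within Syn3 on the opposite strand, Mmp11 overlaps Chchd10, Mmp19 overlaps Tmem198b and Gm47093, and Timp2 overlaps Cep295nl on the same strand. The use of strand in counting was not stated, so that reads of the overlapping parts may have been shared or lost.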

How the data were processed

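The deposited data were raw read counts per Ensembl gene, which the authors had not normalised. Methods of the study describe processing of single-end reads with zUMIs, STAR and featureCounts against the mouse assembly mm10 (GRCm38), and these libraries were assumed to be processed in the same way. Use of strand and of molecular identifiers was not given in the sources used here. Libraries were grouped by the batch and age in the labels. The members and gene lists were chosen with earlier results of these data known.

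Ensembl identifiers were matched to a GENCODE annotation of GRCm38 (28143 of 28222 genes). Lengths and GC content are those of the longest transcript, and coordinates are 1-based. Two-sided quasi-likelihood tests were run on the counts (edgeR 4.0.16, R 4.3.3) after filterByExpr with a minimum count of 5, with TMM factors and Benjamini-Hochberg adjustment over all genes tested (threshold 0.05). The age term came from a fit of all 11 libraries with batch, in which the age difference rests on the libraries of batch B. Libraries of batches A and C added only to the estimate of the spread. The difference of batches A and B was estimated from the 6 young and that of batches B and C from the 5 old libraries. The SE of an edgeR log2 difference was calculated back from the test, as its absolute value divided by the square root of the F statistic. Log2 CPM used a prior count of 2. Named pathway genes were all those past the threshold with age and, for each batch comparison, the 3 with the largest log2 difference in each direction. Atp6v0d2, Alpl, Nt5e and Adamts6 were named after their values were seen. The pattern search covered Mmp9, Mmp13 and Timp1. The fits were tried on simulated counts that had the same dispersion for all genes and changes only in genes with higher counts. That check does not cover genes near the detection limit or replicates of unequal spread.

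Alternatives were limma-trend (limma 3.58.1), DESeq2 1.42.0, RLE factors, scaling by library totals, no filter or a minimum count of 10, the replicate number as block, a loess correction for length and GC content (span 0.3), no batch term, batch B alone, and leaving out each library. Deviations of libraries with the same replicate number correlated between -0.111 and 0.135, so that the number was not taken to pair them.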

Additional observations from a re-analysis of the deposited data

How the results depend on the processing

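In the age comparison within batch B the number of members past the threshold, 2, was 4 with DESeq2, 5 without a filter and 4 without a batch term (Timp1, Timp2 and Timp3 in, Mmp13 out), and 2 to 4 when a library was left out (4 without batch B young replicate 2, where Timp2 and Timp3 were added). Pathway genes past the threshold, 2, became 4 with DESeq2, 8 without a filter, 5 after length and GC correction, 8 without a batch term and 1 with batch B alone, and 2 to 7 when a library was left out (7 without batch B young replicate 2, 4 without batch A young replicate 1, 2 or 4). With the replicate number as block the pathway count was 4 for age, and between batches B and A in young MSCs members fell from 5 to 3 and pathway genes from 7 to 3. These young batch counts were 3 to 6 members and 2 to 9 pathway genes when a library was left out, the lowest without batch B young replicate 2. Over all genes, the 360 calls for age were 640 with DESeq2, 1094 without a filter, 2641 without a batch term, 123 with batch B alone and 84 to 2007 when a library was left out (84 without B old replicate 1, 2007 without B young replicate 2), and the 2686 calls between young batches were 729 with the replicate block and 511 to 4031 when a library was left out (without B young replicate 2 and replicate 1). With total counts as the scale, calls in the higher direction went from 31.1% to 44.8% for age, from 51.9% to 66.4% between young and from 49.6% to 62.85% between old batches. Between old batches, members were 4 to 7 and pathway genes 23 to 31 in fits without 1 library. Mmp2 in batch C minus B was 0.0115 under scaling by total counts. The Timp to Mmp ratio was 1.67 in B old and 2.54 in C old MSCs without division by length, and 1.39 and 2.89 without Mmp2 and Timp1. Libraries of batches A and C hold 1 age each, so that leaving them out hardly moves the age estimate and tests little. Mmp9 and Mmp13 kept their direction with age in all fits that left out a library (3.63 to 5.23 and 0.98 to 1.39). As both were chosen with this difference known, that outcome was nearly fixed beforehand and only describes the range of values. The cause of these changes was not tested. With 2 libraries per age in batch B, and 2 to 7 counts of Mmp9 in most libraries, small differences were not detectable.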
